A study of Mus musculus with 16 samples.

Results

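The members described here are array features that report RefSeq non-coding transcripts in the ventricles of female mice. They were chosen by their annotation, as probes whose transcript accession carries the RefSeq prefix for curated non-coding RNA, with spots of 1 probe averaged and chromosomes X and Y left out. Of 1472 such probes, 63 lay on X and 1 on Y, and 1408 remained. Of these, 516 (36.6%) form the set, because in some group each of the 4 arrays carried the scanner's flag for a signal well above background, and the 892 without that flag were left out. For RefSeq coding transcripts on the same arrays the corresponding share was 67.9%, 17393 of 25598 probes. The members carried 414 gene symbols. All 16 arrays flagged 411 of the members as above background, and 44 without a match in the gene table stay unnamed. Those 44 have no chromosome here, so the rule on X and Y could not be applied to them.

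The groups compared were 4 sets of 4 independent female mice: nulliparous Npr1+/+, 2-week lactating Npr1+/+, nulliparous Npr1-/- and 2-week lactating Npr1-/-. Npr1 encodes the guanylyl cyclase receptor through which cardiac natriuretic peptides act, and the series asks how its loss bears on the heart during lactation. Strain, age and the deleted part of the gene were not given in the labels, and the RNA came from ventricular tissue as a whole. Where nulliparous knockout replicate 4 is written below, it is the array that carries this label. Each mouse was hybridised to 1 one-colour array. A level below is the log2 of a probe's background-subtracted signal relative to the 75th percentile of its array, so levels are read between arrays for 1 probe, and mean levels over all arrays serve only to order or group probes. A change is the difference of 2 group means of such levels ± its standard error (SE), and a probe was called at a limma Benjamini-Hochberg adjusted p under 0.05 over all 28950 probes of any kind that passed the filter.

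RefSeq non-coding transcripts are a mixed collection. Small nucleolar RNAs (snoRNAs), which guide the chemical modification of ribosomal RNA, and many microRNAs are cut from the introns or exons of longer host transcripts, whose spliced remainder may have no coding function of its own. Long non-coding RNAs (lncRNAs) include scaffolds of nuclear bodies, imprinted transcripts that silence neighbouring genes, and transcripts that start back to back with a coding gene. Processed pseudogenes are copies of coding genes and often share most of their sequence with the parent. Probes of hosts read the host transcripts and not the small RNAs cut from them, while some small RNAs have probes of their own.

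Sequences of small RNAs from the microRNA hosts of this set were taken from RefSeq on build GRCm38.p6. They are shown to make plain which products these hosts carry, and the levels of the products were not measured. The seed, bases 2 to 8, is in capitals. The first lies at chr11:75463772-75463793 in Mir22hg, and the second at chr14:115044476-115044496 in Mir17hg. The next pair, from Dleu2, shares a seed. Dleu2 holds them on the minus strand at chr14:61632075-61632096 and chr14:61631936-61631957. The last group of 3 shares another seed and comes from D7Ertd143e, at chr7:3218968-3218989, chr7:3220691-3220712 and chr7:3220815-3220837.
mmu-miR-22-3p: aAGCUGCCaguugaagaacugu
mmu-miR-92a-3p: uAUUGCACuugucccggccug
mmu-miR-15a-5p: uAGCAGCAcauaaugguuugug
mmu-miR-16-5p: uAGCAGCAcguaaauauuggcg
mmu-miR-291a-3p: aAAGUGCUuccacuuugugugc
mmu-miR-294-3p: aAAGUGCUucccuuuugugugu
mmu-miR-295-3p: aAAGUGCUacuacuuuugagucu

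Many snoRNA hosts begin with a pyrimidine tract, the start of transcripts whose translation and stability follow growth signals. A run of at least 5 C or T letters was searched on the transcribed strand in the first 20 bases after each RefSeq start. It was present in 15 of 19 starts of the member snoRNA hosts (79.0%), against 32.8% of all 32851 starts in the table, 36.9% of starts of members and 32.5% of starts of genes with a tested coding transcript. A match is a description of these letters only. The windows below run from 30 bases before the start, with the first run in capitals. They are shown for 4 hosts that rose or fell in wild-type lactation and hold such a run, and for Snhg15, which had no run in the window. Snhg3 lies at chr4:132353647-132353716 and Snhg12 at chr4:132308648-132308717. Snhg7 lies at chr2:26640205-26640274, Snhg18 at chr15:32244623-32244692 and Snhg15 at chr11:6528721-6528790.
Snhg3: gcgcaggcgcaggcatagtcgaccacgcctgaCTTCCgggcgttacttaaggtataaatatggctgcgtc
Snhg12: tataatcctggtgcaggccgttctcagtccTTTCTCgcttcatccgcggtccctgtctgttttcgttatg
Snhg7: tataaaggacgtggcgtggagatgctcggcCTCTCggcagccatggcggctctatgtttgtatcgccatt
Snhg18: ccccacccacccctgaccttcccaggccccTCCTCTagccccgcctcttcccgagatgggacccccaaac
Snhg15: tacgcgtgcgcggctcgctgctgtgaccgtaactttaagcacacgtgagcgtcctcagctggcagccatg

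The arrays themselves bear on every result. Nulliparous arrays had a 75th percentile signal of 165 to 221, except nulliparous knockout replicate 4 at 284, and lactating arrays had 278 to 347. On the first principal component of 510 members without missing values, which held 49.0% of their variance, that replicate lay at 4.27, the other nulliparous arrays between -10.3 and -8.0, and the lactating arrays between 5.2 and 9.7. It thus lay apart from its labelled group and nearer the lactating arrays, and was kept under its label. Of the named probes, none lost its call without it, and the changes without it are given beside the knockout results in which its level stood nearest the lactating arrays. The Npr1 probe was close to background throughout, at -4.68 to -3.53, and well above background on 1, 3, 2 and 3 arrays of the groups in the order above, so it does not check the genotypes. All 7 cardiomyocyte markers passed the filter, and their summed level, the sum of linear signals relative to the 75th percentile, was 5943 to 7233 in nulliparous and 5579 to 6030 in lactating wild-type mice, and 5929 to 7786 and 4860 to 5506 in the knockout. These 7 did not move together. In wild-type lactation 1 was called higher and 2 lower, with changes of -0.39 to 0.80. In the knockout 1 was called higher and 4 lower, with changes of -0.63 to 0.58. The 5 macrophage markers summed to 20.1 to 24.1 and 36.4 to 43.0 in wild-type mice and to 18.2 to 33.9 and 39.9 to 48.8 in the knockout, and all 5 were called higher in lactation in both genotypes. The 5 markers of dividing cells summed to 0.978 to 1.89 and 1.95 to 5.69 in wild-type mice, with 4 of 5 called higher in lactation, and to 0.620 to 3.77 and 3.18 to 8.77 in the knockout, with all 5 called higher. Nulliparous knockout replicate 4 had the highest sum of its group for both lists. Of 4 atrial markers, 1 was called higher and 2 lower in wild-type lactation and 1 higher and 3 lower in the knockout, and their sum was 198 to 360 and 409 to 758 in wild-type mice and 223 to 719 and 477 to 1135 in the knockout. The 2 red cell markers summed to 243 to 310 and 370 to 484, with 1 called higher, and to 255 to 305 and 403 to 553, with both called higher. Of 4 adipocyte markers, 1 was called higher in wild-type lactation and 2 lower in knockout lactation. Between genotypes, 1 of these 4 was called lower in the knockout in nulliparous and 3 in lactating mice. In such bulk tissue, fewer cells of a type and less RNA per cell cannot be told apart, and the part of these markers in the results below was not tested.

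In wild-type mice, 237 of the 516 non-coding members were called between lactating and nulliparous ventricles, 116 higher and 121 lower. That is 45.9%, beside 48.3% of all probes tested, with 26.2% of all probes called higher and 22.1% lower. In the knockout, 235 members were called, 90 higher and 145 lower, or 45.5% beside 44.2% of all probes, of which 20.6% were higher and 23.7% lower. The share called was therefore close to that of the array in both genotypes. The direction of the calls differed in its balance: 51.1% of member calls in wild-type mice and 61.7% in the knockout were lower, against 37.4% and 42.1% of the calls among coding probes. The median change of the members was -0.046 in wild-type and -0.150 in knockout mice, against 0.099 and 0.065 for coding probes and 0.021 and -0.030 for all probes. The split of member calls into higher and lower depends on where the arrays are centred. Median centring shifts all probes of an array alike, so the distance between the medians of members and coding probes stays as it was. The calls below are of members only. With each array centred on its median, the median change of all probes moved to 0.203 and 0.151, and the members called were 151 higher and 81 lower in wild-type mice and 121 higher and 104 lower in the knockout. With normexp background correction they were 88 higher and 168 lower, and 80 higher and 225 lower.

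The members were also set beside coding probes of like mean signal, in bands that each held 172 members. In the upper band, 60.5% of members and 54.5% of 9728 coding probes were called in wild-type lactation, and 51.0% and 33.5% of those calls were lower. In the knockout these shares were 58.1% and 47.5% called, and 59.0% and 40.9% of calls lower. In the middle band 43.6% of members were called in wild-type mice, with 54.7% of calls lower, beside 49.3% and 42.5% among coding probes. In the lower band 33.7% were called with 46.6% of calls lower, beside 37.1% and 45.0%. In wild-type mice the share of lower calls thus exceeded that of coding probes most in the upper band and by little in the lower one. In the knockout this order was not seen, since 63.6% of member calls in the middle band were lower against 41.4% of coding calls, and 63.8% against 49.5% in the lower band.

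**Figure D1:**
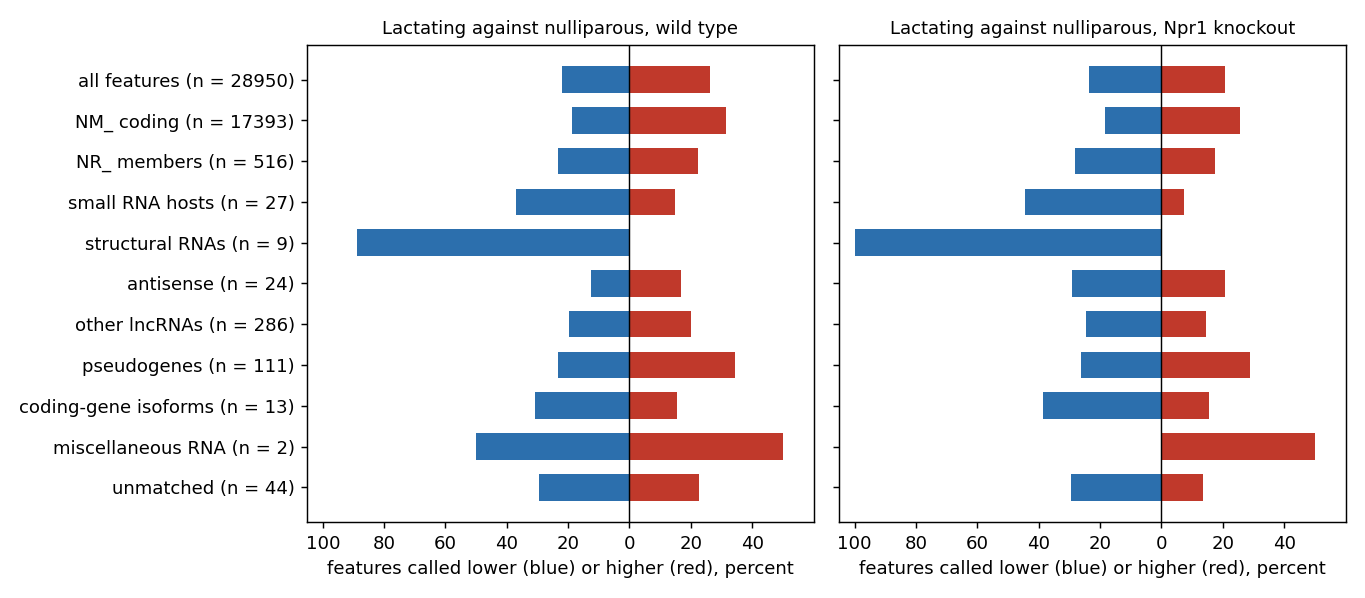
Percent of features called lower (bars to the left) or higher (bars to the right) in lactating against nulliparous ventricles, for wild-type and knockout mice, by class of transcript with the number of features in brackets. The structural RNAs were called lower in 8 of 9 and 9 of 9 features, while pseudogenes had more higher than lower calls in both genotypes.

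The 9 structural RNAs, which are components of the spliceosome, the nucleolus and the ribosome, were lower in lactation almost throughout: 8 of 9 in wild-type and 9 of 9 in knockout mice, with median changes of -1.08 and -0.98. Of all probes, 22.1% and 23.7% were called lower. The same direction held with median centring (7 and 9 of 9 called lower), quantile normalization (9 and 9) and normexp correction (8 and 9), and without nulliparous knockout replicate 4 all 9 were called in the knockout. Most of these RNAs lack a poly(A) tail, whereas the amplification used for labelling primes from poly(A) tails. How their probes came by signal was not tested.

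Rnu1b6 is a copy of U1, the small nuclear RNA that recognises the start of an intron. Its levels were 6.86, 6.86, 6.85 and 6.80 on nulliparous wild-type arrays and 5.64, 5.71, 5.48 and 5.78 on lactating wild-type arrays. On nulliparous knockout arrays they were 7.02, 6.86, 7.28 and 5.89, and on lactating knockout arrays 5.64, 5.33, 5.49 and 5.49. The nulliparous and lactating arrays did not overlap in either genotype, although nulliparous knockout replicate 4 stood closer to the lactating arrays than to its own group. The change was -1.19 ± 0.21 in wild-type mice (adjusted p = 0.000552) and -1.27 ± 0.21 in the knockout (adjusted p = 0.000798), or a fall of 2.28-fold and 2.42-fold. Without nulliparous knockout replicate 4 the knockout change was -1.56.

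Rnu2-10, a copy of the U2 RNA of the branch point, changed by -1.26 ± 0.27 (adjusted p = 0.00163) and -1.37 ± 0.27 (adjusted p = 0.00154), the latter -1.69 without nulliparous knockout replicate 4. Rnu12, the U12 RNA of the minor spliceosome, changed by -0.61 ± 0.19 (adjusted p = 0.0152) and -0.67 ± 0.19 (adjusted p = 0.0104). With median centring the wild-type change of Rnu12 was -0.43 with an adjusted p of 0.0637, and with only the 2 knockout groups in the fit the knockout call was lost (adjusted p = 0.0602). All 3 spliceosomal RNAs of the set were thus lower in both genotypes, that of the minor spliceosome by the least.

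Rmrp, the RNA of the RNase MRP complex that cuts the ribosomal RNA precursor, stood at 0.66, 0.82, 0.74 and 0.68 on nulliparous and at -0.39, -0.25, -0.55 and -0.41 on lactating wild-type arrays. Knockout levels were 0.74, 0.54, 0.68 and -0.51 against -0.59, -0.61, -0.84 and -0.93. Here too the groups did not overlap, and replicate 4 of the nulliparous knockout lay just above the lactating arrays. The changes were -1.13 ± 0.21 (adjusted p = 0.000727) and -1.11 ± 0.21 (adjusted p = 0.00138), the latter -1.40 without nulliparous knockout replicate 4.

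The remaining structural members followed the same direction. Rnu3b1, a U3 snoRNA of ribosomal RNA processing, changed by -1.08 and -0.98, and the snoRNAs Snora47 and Snora74a by -1.08 and -0.88 and by -0.97 and -1.16. Rn4.5s, a small RNA of rodents, changed by -0.67 and -0.87. Each of these was called in both genotypes. Rn28s1, the RNA of the large ribosomal subunit, was called in the knockout at -0.85 ± 0.19 (adjusted p = 0.00325), and in wild-type mice it changed by -0.43 ± 0.19 (adjusted p = 0.0719).

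Small RNA hosts formed the class of 27 members that the gene table shows to hold a snoRNA or microRNA gene. In wild-type mice 4 were higher and 10 lower in lactation, in the knockout 2 higher and 12 lower, with medians of -0.33 and -0.41. That is 51.9% called in each genotype, beside the 48.3% and 44.2% of all probes, with 37.0% and 44.4% lower beside 22.1% and 23.7%. The median stayed below 0 in both genotypes with median centring (-0.15 and -0.23), quantile normalization (-0.39 and -0.36) and normexp correction (-0.26 and -0.33). Of a list of 27 known snoRNA hosts, 14 genes were measured by 15 probes. Among these probes 3 rose and 5 fell in wild-type mice, 1 rose and 6 fell in the knockout, and the others did not pass the test. The shares called, 53.3% and 46.7%, were near those of all probes.

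Snhg3 is the host of Snora73a and Snora73b. It stood at 0.09, 0.16, 0.16 and 0.27 on the nulliparous wild-type arrays and at 1.55, 1.66, 1.63 and 1.80 on the lactating ones. On the nulliparous knockout arrays it stood at 0.44, 0.42, 1.49 and 1.74, and on the lactating ones at 0.87, 1.68, 1.81 and 1.74. The wild-type groups were far apart, while the knockout groups overlapped, since nulliparous replicates 3 and 4, which share slide 2, were as high as lactating arrays. Snhg3 rose 2.81-fold in wild-type lactation (1.49 ± 0.27, adjusted p = 0.000653), and changed by 0.50 ± 0.27 in the knockout (adjusted p = 0.148). Without nulliparous knockout replicate 4 the knockout change was 0.74 with an adjusted p of 0.0240. The difference between the changes in the 2 genotypes was not called (-0.99, adjusted p = 0.732).

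Snhg6, the host of Snord87, stood at 1.53, 1.53, 1.79 and 1.30 against 2.79, 2.65, 2.49 and 2.59 in wild-type mice. It rose by 1.10 ± 0.26 (adjusted p = 0.00379) with no overlap. Its change in the knockout, 0.68 ± 0.26, just passed (adjusted p = 0.0485) with overlapping groups. That call was lost with quantile normalization, no filter, only the knockout groups in the fit, a slide block, a replicate block and the authors' table (adjusted p of 0.0503 to 0.136). It was also lost when any 1 of 14 arrays was left out (adjusted p of 0.0517 to 0.160) and was kept without nulliparous knockout replicate 4 (0.99, adjusted p = 0.000685) or lactating knockout replicate 3. The third riser in wild-type mice, 1110038B12Rik, which holds Snord52, rose by 0.31 ± 0.10 (adjusted p = 0.0154).

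The hosts that fell were more numerous. Snhg12, which holds Snora16a, Snora44, Snora61 and Snord99, stood at 1.24, 1.22, 1.37 and 1.36 against 0.87, 0.79, 0.72 and 0.84 in wild-type mice, and at 1.65, 1.78, 1.53 and 1.23 against 0.75, 0.64, 0.97 and 1.00 in the knockout. Nulliparous and lactating arrays did not overlap in either genotype. It fell by 0.49 ± 0.12 (adjusted p = 0.00325) and by 0.71 ± 0.12 (adjusted p = 0.000759).

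Snhg7, the host of Snora43 and Snora17, fell by 0.70 ± 0.19 and 0.75 ± 0.19 (adjusted p = 0.00796 and 0.00676), with no overlap in wild-type mice and 1 overlapping pair of arrays in the knockout. Snhg15 fell by 0.34 ± 0.12 and 0.45 ± 0.12 (adjusted p = 0.0265 and 0.00726). The calls for Snhg15 were lost with median centring (adjusted p = 0.228 and 0.0523), and the wild-type call also without nulliparous replicate 2 or 4 or lactating replicate 1 (adjusted p of 0.0528 to 0.0743). The 2 probes of Snhg16, which holds 3 snoRNAs of the Snord1 group, changed by -0.33 and -0.57 in wild-type mice, where neither was called, and fell by 0.85 and 0.81 in the knockout, where both were. The second of these calls was lost without replicate 1 or 3 of the nulliparous or replicate 1 or 4 of the lactating knockout (adjusted p of 0.0582 to 0.0719).

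Snhg18, the host of Snord123, stood at 1.22, 1.10, 1.20 and 1.54 against 0.15, -0.44, 0.50 and 0.88 in wild-type mice. Knockout levels were 1.40, 1.54, 1.67 and 0.96 against 1.31, 1.22, 1.16 and 1.33. The lactating wild-type arrays were thus the low ones, and the other 3 groups lay close together. It fell by 0.99 ± 0.22 in wild-type mice (adjusted p = 0.00252) and changed by -0.14 ± 0.22 in the knockout (adjusted p = 0.649). The difference between genotypes in this change was 0.86 and was not called after adjustment (adjusted p = 0.690).

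Snhg1, which holds 8 snoRNA genes in the table, changed by 0.19 and -0.02, Dancr by -0.12 and -0.31, Snhg17 by -0.27 and -0.30 and 2410006H16Rik by -0.15 and -0.42, none of which passed the test. Snhg5 fell by 0.66 in wild-type mice (adjusted p = 0.0287), a call lost with median centring (adjusted p = 0.0954) and quantile normalization (adjusted p = 0.0829). That call was also lost without nulliparous replicate 1, 2 or 3 or lactating replicate 3 (adjusted p of 0.0551 to 0.0887). Snhg10 fell by 0.38 in the knockout (adjusted p = 0.0299), a call lost with median centring (adjusted p = 0.204). That call was also lost without nulliparous replicate 2 or 3 or lactating replicate 1 or 4 (adjusted p of 0.0612 to 0.0900). Hosts of snoRNAs therefore did not share a single direction. The coding genes of the snoRNA particle and its assembly, from a list of 15 genes with 14 measured, gave 8 higher and 0 lower in wild-type mice and 5 higher and 1 lower in the knockout. In that list 57.1% and 42.9% were called, beside 48.3% and 44.2% of all probes. At an unadjusted p under 0.05 the wild-type list had 11 genes, beside 15907 of all 28950 probes. The largest was Shq1, an assembly factor, at 1.34 and 0.73, followed in wild-type mice by Znhit3 (0.90 and 0.92) and Nop10 (0.50 and 0.28).

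**Figure D2:**
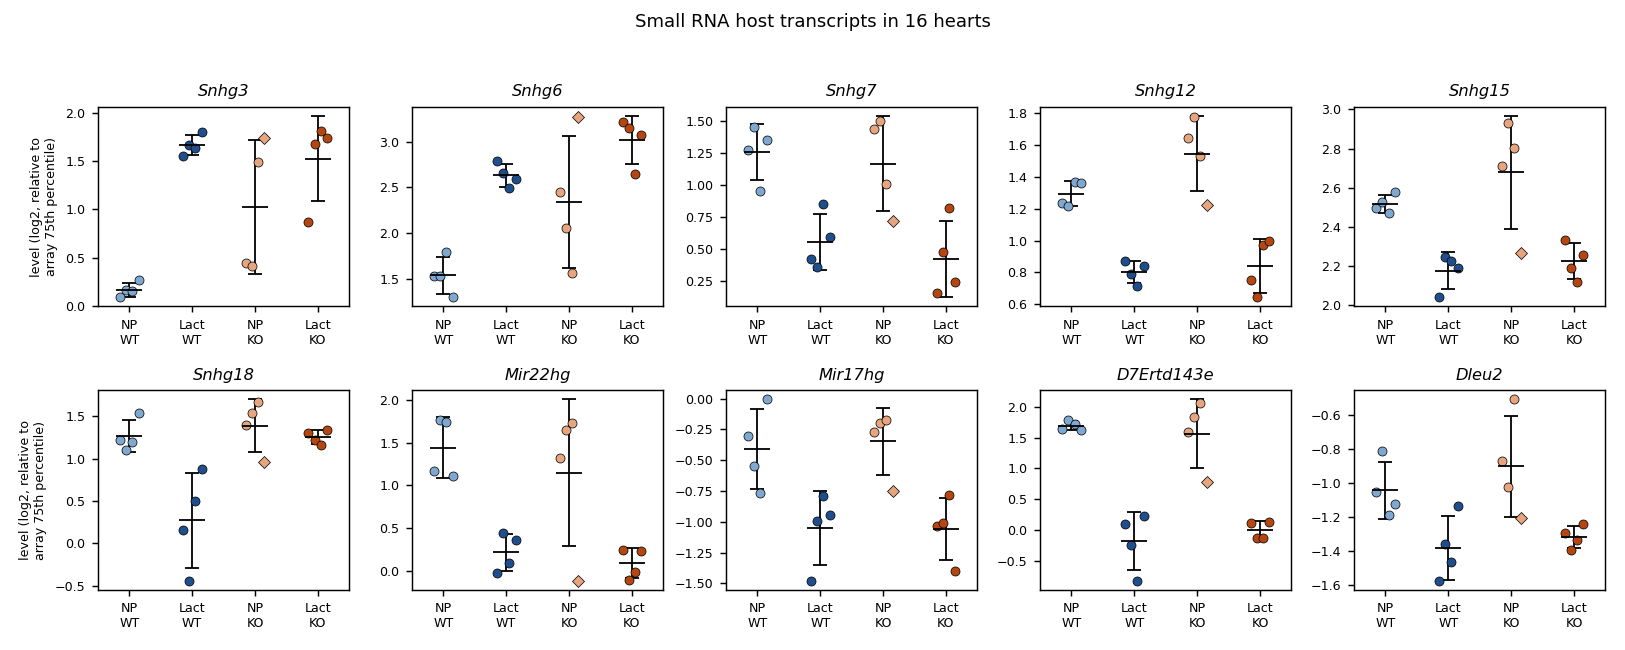
Levels of 10 small RNA host transcripts on 16 arrays (log2, relative to the array's 75th percentile; NP, nulliparous; Lact, lactating; WT, wild-type; KO, Npr1 knockout), with 1 point per mouse, the group mean as a horizontal bar and ±1 SD (n = 4) as error bars. The diamond is nulliparous knockout replicate 4, which lies at 1.74 for Snhg3, among the lactating arrays, and at -0.12 for Mir22hg, just below them.

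MicroRNA hosts were measured by 8 probes of 7 genes from a list of 32. In wild-type mice 2 probes were higher and 3 lower, and in the knockout 2 higher and 4 lower, with medians of -0.39 and -0.47. That is 62.5% and 75% called, beside 48.3% and 44.2% of all probes. Mir22hg, host of miR-22, a microRNA abundant in heart muscle, was among those that fell. Mir22hg stood at 1.17, 1.76, 1.74 and 1.11 on nulliparous and at -0.03, 0.44, 0.08 and 0.36 on lactating wild-type arrays. In the knockout it stood at 1.31, 1.65, 1.73 and -0.12 against 0.24, -0.11, -0.02 and 0.23. The groups were apart in wild-type mice, and in the knockout they overlapped through replicate 4 alone. The host fell by 1.23 ± 0.32 (adjusted p = 0.00579) and by 1.06 ± 0.32 (adjusted p = 0.0155), the latter by 1.48 without that replicate. Leaving out replicate 2 or 3 of the nulliparous knockout ended the knockout call (adjusted p = 0.0536 and 0.0539).

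D7Ertd143e is the host of a microRNA cluster known from early embryos and stem cells, the source of the 3 sequences with a shared seed above. Its levels were 1.64, 1.79, 1.72 and 1.63 on nulliparous and 0.11, -0.23, -0.82 and 0.23 on lactating wild-type arrays. Those of the knockout were 1.59, 1.83, 2.06 and 0.79 against 0.12, -0.12, -0.13 and 0.13. No lactating array reached a nulliparous one in either genotype. It fell by 1.87 ± 0.25 (adjusted p = 0.000129) and by 1.57 ± 0.25 (adjusted p = 0.000668), or 3.67-fold and 2.96-fold, and by 1.83 in the knockout without nulliparous knockout replicate 4.

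Mir17hg, host of the miR-17 to miR-92a cluster that promotes cell division, fell by 0.64 ± 0.19 and 0.71 ± 0.19 (adjusted p = 0.0136 and 0.00937), with the groups apart in both genotypes. Dleu2, host of miR-15a and miR-16, whose shared seed is shown above, changed by -0.34 ± 0.14 (adjusted p = 0.0571) and fell by 0.41 ± 0.14 in the knockout (adjusted p = 0.0261), a call lost with median centring. Leaving out replicate 1 or 3 of the nulliparous knockout, or 2 or 3 of the lactating one, also ended it (adjusted p between 0.0524 and 0.0835). Trim13, which lies beside Dleu2, rose by 0.78 and 0.79. Kcnrg, which overlaps Dleu2 on the opposite strand, changed by -0.09 and -0.83 at its brighter probe, the second called (adjusted p = 0.00151). At its dimmer probe it changed by -1.06 and -1.70, again with the second called (adjusted p = 0.0304). Mir99ahg, an lncRNA that carries microRNA genes, rose by 0.57 and 0.56 (adjusted p = 0.0191 and 0.0243), calls lost without lactating wild-type replicate 1 (adjusted p = 0.0616) or replicate 2 of either knockout group (adjusted p = 0.0741 and 0.0747). Mir1a-1hg, host of the muscle microRNA miR-1, fell by 0.56 ± 0.22 in wild-type mice (adjusted p = 0.0475) and stood at a change of 0.02 ± 0.22 in the knockout. The wild-type call of Mir1a-1hg was lost under median centring, quantile normalization, no filter, a replicate block, a slide block, slide 1 alone and the authors' table (adjusted p of 0.0507 to 0.159), and when any 1 of 11 arrays was left out (adjusted p of 0.0506 to 0.145), and its knockout change turned to -0.32 with normexp correction.

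Of 14 coding genes of microRNA processing and function, 3 were higher and 8 lower in wild-type mice, and 2 higher and 8 lower in the knockout. The shares called were 78.6% and 71.4%, beside 48.3% and 44.2% of all probes. Drosha, the nuclear enzyme that cuts microRNA precursors out of their hosts, fell by 0.63 and 0.51. Dicer1, which makes the mature duplex, fell by 0.42 and 0.34, and Ago2, which carries the mature microRNA, fell by 0.61 and 0.46. Ran, which serves precursor export, rose by 0.80 and 0.62.

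Among RNAs that organise the nucleus, 15 probes of 7 genes from a list of 14 were measured, with 3 higher and 7 lower in wild-type mice and 3 higher and 10 lower in the knockout. The probes called were 66.7% and 86.7%, beside 48.3% and 44.2% of all probes. The lists overlap, so their shares are not separate results. Meg3 is also in the microRNA host, imprinted and cardiac lists, and Kcnq1ot1 in the imprinted and cardiac lists. Malat1 and Neat1 are also in the cardiac list, and Airn in the imprinted list. Norad and Tug1 give 4 and 3 of the 15 probes. Malat1, an abundant RNA of nuclear speckles, stood at 2.94, 3.70, 4.06 and 2.90 on nulliparous and at 1.61, 2.55, 1.99 and 2.12 on lactating wild-type arrays. Knockout levels were 3.70, 3.59, 4.16 and 2.59 against 2.19, 2.49, 1.94 and 3.31. The knockout groups overlapped, through a high lactating replicate 4 as well as a low nulliparous replicate 4. Malat1 fell by 1.33 ± 0.37 (adjusted p = 0.00818) and by 1.03 ± 0.37 (adjusted p = 0.0340), and with median centring the knockout change was -0.85 with an adjusted p of 0.0594. The knockout call was also lost without replicate 1, 2 or 3 of either knockout group (adjusted p of 0.0614 to 0.107), and without nulliparous knockout replicate 4 the change was -1.34 (adjusted p = 0.00538).

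Neat1, the scaffold of paraspeckles, stood at 7.84, 7.85, 8.11 and 7.79 against 7.63, 7.86, 7.30 and 7.94 in wild-type mice, where the groups overlapped. Knockout levels were 8.08, 8.36, 8.39 and 8.11 against 7.48, 7.65, 7.49 and 7.47, with no overlap. It changed by -0.22 ± 0.13 in wild-type mice (adjusted p = 0.196) and fell by 0.71 ± 0.13 in the knockout (adjusted p = 0.00129). The difference between these changes was -0.50 and was not called (adjusted p = 0.704). Of 11 coding genes of paraspeckles and speckles, 3 rose and 4 fell in wild-type mice and 2 rose and 3 fell in the knockout, where the 45.5% called stood near the share of all probes. In wild-type mice 63.6% were called, beside 48.3% of all probes. The speckle proteins Srrm2 (-1.09 and -1.01), Srrm1 (-0.64 and -0.72) and Son (-0.36 and -0.51) fell in both genotypes, and Hnrnpk (0.59 and 0.51) and Pspc1 (0.53 and 0.44) rose.

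Probes of 1 gene did not always move together. Of 46 genes with more than 1 member probe, 104 probes in all, 4 had calls in opposite directions in wild-type mice and 5 in the knockout, while 10 and 11 had all probes called the same way. Norad, which binds Pumilio proteins, was read by 4 probes, whose wild-type changes were 0.49, -0.28, -0.16 and -0.79 from the brightest to the dimmest. The brightest probe was called higher and the other 3 lower in the knockout (0.43 against -0.47, -0.53 and -0.79). With 1 array left out, the wild-type call at the second probe and the knockout calls at the first and the third were lost in some of the fits (adjusted p up to 0.122). With median centring the knockout calls at both middle probes were lost, and so was the wild-type call at the second probe, where the change was -0.10 (adjusted p = 0.493). Tug1 changed by 0.35 and 0.33 at its brightest probe and by -1.15 and -0.81 at another. Meg3, the maternally expressed RNA of the Dlk1 to Dio3 domain, changed by -0.32 (adjusted p = 0.144) and -0.53 (adjusted p = 0.0237) at the brighter and by 0.94 and 0.59 at the dimmer probe. Both knockout calls of Meg3 were lost without 1 of several arrays (adjusted p up to 0.134). For such genes a direction belongs to the probe and not to the gene. What sets the probes apart, such as isoforms, the distance from the poly(A) end or cross-hybridisation, was not tested.

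**Figure D3:**
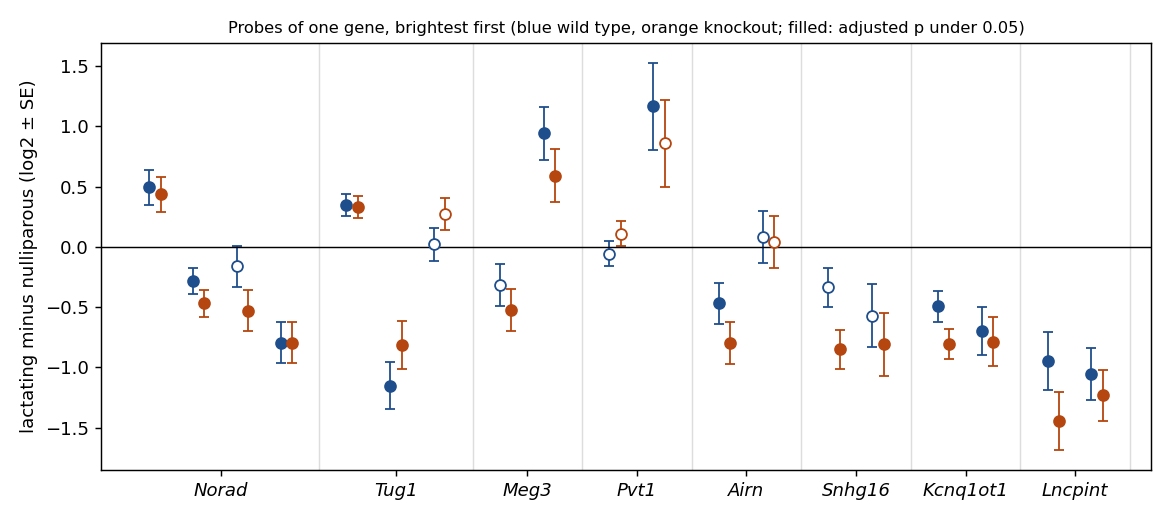
Change in lactation (log2, lactating minus nulliparous, ± SE; 4 mice per group) for each probe of 8 lncRNA genes, ordered from the brightest to the dimmest probe, with wild-type mice in blue and knockout in orange and filled points called at an adjusted p under 0.05. Norad, Tug1 and Meg3 have filled points on both sides of 0, whereas Kcnq1ot1 and Lncpint have all points below it.

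Imprinted non-coding RNAs were measured by 9 probes of 6 genes from a list of 20, with 1 higher and 5 lower in each genotype and medians of -0.44 and -0.55. That is 66.7% called in each genotype, beside 48.3% and 44.2% of all probes. The median was -0.26 and -0.36 with median centring. Kcnq1ot1, which silences its imprinted domain on the paternal chromosome, fell at both probes, by 0.49 and 0.70 in wild-type and by 0.81 and 0.79 in knockout mice. Cdkn1c, a growth inhibitor of the same domain, fell by 1.10 and 1.00, and Kcnq1 changed by 0.13 and 0.14, which did not pass the test. Airn, which silences Igf2r, fell at its brighter probe by 0.47 and 0.80, the former call lost with median centring and without nulliparous replicate 2 or 4 or lactating replicate 1 or 3 (adjusted p of 0.0594 to 0.121), and changed by 0.08 and 0.04 at its dimmer one. Igf2r rose by 0.24 in wild-type mice (adjusted p = 0.0265) and changed by 0.03 in the knockout.

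Igf2os, transcribed against the growth factor gene Igf2, stood at -2.38, -2.36, -2.61 and -2.5 against -3.42, -3.37, -3.85 and -3.26 in wild-type mice. Knockout levels were -2.36, -2.40, -2.52 and -2.92 against -3.35, -3.61, -3.74 and -3.30. All nulliparous arrays lay above all lactating ones in each genotype. It fell by 1.01 ± 0.15 (adjusted p = 0.000218) and by 0.95 ± 0.15 (adjusted p = 0.000703). Igf2os is dim, with all levels under -2.22, the upper edge of the lower signal band. Its lowest lactating levels reached those of the Npr1 probe, which was close to background, so the size of the fall is uncertain. Igf2 itself fell by 0.98 and 0.89. Of 15 measured coding partners of imprinted RNAs, 3 rose and 5 fell in wild-type mice, and 2 rose and 5 fell in the knockout, and the 53.3% and 46.7% called were near the shares of all probes.

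Of the lncRNAs described in heart muscle, 12 probes of 9 genes from a list of 27 were measured, with 3 higher and 4 lower in wild-type mice and 2 higher and 7 lower in the knockout. Beside 48.3% and 44.2% called of all probes, 58.3% and 75% of these 12 were called. Their wild-type median was -0.17, and 0.02 with median centring. Mhrt, transcribed from the locus of the cardiac myosin heavy chains, stood at 7.42, 7.49, 7.32 and 7.64 against 6.24, 6.66, 6.73 and 7.17 in wild-type mice. Knockout levels were 7.70, 7.80, 8.15 and 7.08 against 6.54, 5.86, 6.83 and 6.54. The groups did not overlap in either genotype. Mhrt fell by 0.77 ± 0.24 (adjusted p = 0.0173) and by 1.24 ± 0.24 (adjusted p = 0.00156). Without lactating wild-type replicate 1 the wild-type change was -0.61 with an adjusted p of 0.0597, and without nulliparous knockout replicate 4 the knockout change was -1.44. Beside it, the brightest probe of Myh6, the fast adult myosin, fell by 0.39 and 0.63 (adjusted p = 0.0228 and 0.00202). The dimmer Myh6 probe fell by 1.11 and 1.34 (adjusted p = 0.00285 and 0.00144). The brightest probe of Myh7, the slow myosin, changed by -0.47 and 0.47 (adjusted p = 0.568 and 0.570).

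Hand2os1 starts back to back with Hand2, a transcription factor of heart development. The 155 bases that hold both starts lie at chr8:57320844-57320998 of GRCm38.p6, printed on the plus strand with the first base of each transcript in capitals, Hand2os1 first and Hand2 second, 124 bases apart. They are shown because both transcripts were higher in wild-type lactation.
Hand2os1 and Hand2: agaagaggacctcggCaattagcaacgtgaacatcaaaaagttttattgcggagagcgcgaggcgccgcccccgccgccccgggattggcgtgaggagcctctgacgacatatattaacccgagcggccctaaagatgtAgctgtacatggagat

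Hand2os1 stood at 2.48, 2.5, 2.80 and 2.87 on nulliparous and at 3.53, 3.76, 3.65 and 3.73 on lactating wild-type arrays. Knockout levels were 3.14, 2.99, 2.85 and 3.48 against 3.49, 3.34, 3.54 and 3.5. Wild-type groups were apart, and knockout groups overlapped through nulliparous replicate 4. It rose by 1.01 ± 0.13 (adjusted p = 0.000127) and by 0.35 ± 0.13 (adjusted p = 0.0414), the latter 0.31 with an adjusted p of 0.0708 under quantile normalization. The knockout call was also lost when any 1 of 8 arrays was left out (adjusted p of 0.0503 to 0.129). Hand2 rose by 0.81 ± 0.20 in wild-type mice (adjusted p = 0.00442) and changed by 0.19 ± 0.20 in the knockout (adjusted p = 0.471).

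Transcripts named as antisense to a coding gene made up 24 members, 4 of them higher and 3 lower in wild-type mice and 5 higher and 7 lower in the knockout. Beside 48.3% and 44.2% called of all probes, 29.2% and 50% of these 24 were called. Their medians were -0.001 and -0.30, and with median centring 7 were higher and 2 lower in wild-type mice. Dnmt3aos fell by 0.96 and 1.02 (adjusted p = 0.00163 and 0.00175), while Dnmt3a, which encodes a DNA methyltransferase, changed by -0.13 and 0.05 and did not pass the test. Zbtb11os1 rose by 0.54 and 0.45 (adjusted p = 0.00896 and 0.0255), and the brighter probe of Zbtb11 fell by 0.79 and 0.92. Lppos rose by 0.67 and 0.54 beside Lpp, whose brighter probe rose by 0.73 and 0.51 and whose dimmer probe changed by -0.02 and -0.09 and did not pass the test. Zfp652os rose by 1.44 ± 0.19 and 0.57 ± 0.19 beside Zfp652 (0.22 and 0.10, the first called), but for this dim member the changes were 0.40 and -0.02 with normexp correction, which compresses dim probes.

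Next, 249 lncRNA genes were paired with the nearest start among coding genes that had a probe past the filter. A nearer coding gene can thus be missing, and the median distance was 20035 bases. Of these pairs, 51.8% had changes of the same sign in wild-type and 55.4% in knockout mice. Pearson r was -0.04 and -0.02 across pairs that share the same arrays. In the 99 pairs within 10 kb, 54 and 58 had the same sign, with r of 0.09 and 0.03. For the 44 pairs that start back to back within 1 kb, 26 and 30 had the same sign. Both partners were called in 8 such pairs in wild-type mice, 5 in the same and 3 in the opposite direction, and in 7 in the knockout, 2 and 5. The pair of Hand2os1 and Hand2 was 1 of the 5 that moved alike in wild-type mice. The lncRNA 2810001G20Rik, which starts 12 bases from Cox10, an enzyme of heme A synthesis, rose by 0.69 and 0.52 beside Cox10 (1.65 and 1.17). Against this, 4933406C10Rik fell by 0.72 and 1.38 beside Sypl, which rose by 0.48 and 0.44.

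**Figure D4:**
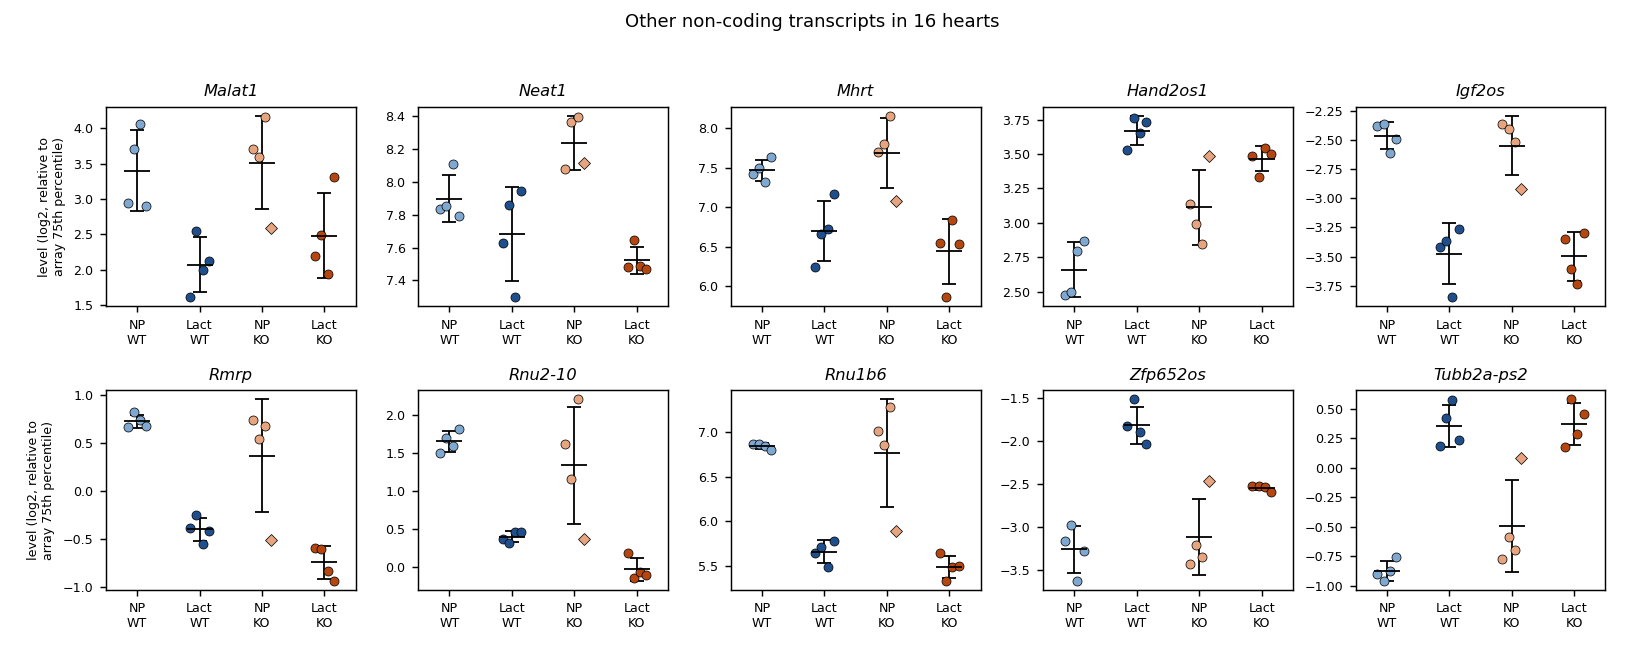
Levels of 10 further non-coding members on 16 arrays (log2, relative to the array's 75th percentile; NP, nulliparous; Lact, lactating; WT, wild-type; KO, Npr1 knockout), with 1 point per mouse, the mean as a horizontal bar and ±1 SD (n = 4) as error bars; the diamond is nulliparous knockout replicate 4. Igf2os, Mhrt, Rmrp and Rnu1b6 fell with the groups apart in both genotypes, and Hand2os1 and Zfp652os were apart in wild-type mice alone.

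Of lncRNAs known from growth and stress, 17 probes of 9 genes from a list of 21 were measured, with 4 higher and 7 lower in wild-type mice and 3 higher and 10 lower in the knockout. The shares called were 64.7% and 76.5%, beside 48.3% and 44.2% of all probes. With median centring the knockout split was 6 higher and 5 lower. The brighter of the 2 probes of Lncpint, an RNA induced by p53, fell by 0.94 ± 0.24 (adjusted p = 0.00540) and by 1.45 ± 0.24 (adjusted p = 0.000816). Nron, which restrains the transcription factor NFAT, rose by 0.68 ± 0.16 and 0.94 ± 0.16 (adjusted p = 0.00297 and 0.000833). Lockd, which lies beside the cell cycle inhibitor Cdkn1b, rose by 1.20 ± 0.44 in each genotype (adjusted p = 0.0349 and 0.0382), the knockout call being lost without nulliparous replicate 1 or 3 or lactating replicate 4 (0.77 to 1.24, adjusted p of 0.0629 to 0.130). Cdkn1b beside it changed by -0.05 and -0.12, which did not pass the test. Pvt1, the neighbour of Myc, rose at its dimmer probe in wild-type mice by 1.17 ± 0.36 (adjusted p = 0.0159). That call was lost with normexp correction (adjusted p = 0.141) and without nulliparous replicate 3 or lactating replicate 2 (adjusted p of 0.0525 and 0.0515). In the knockout this probe changed by 0.86 ± 0.36 (adjusted p = 0.0665), which was called with quantile normalization, median centring, array weights, slide 1 alone and a replicate block (adjusted p of 0.00205 to 0.0376), while its brighter probe changed by -0.06 and 0.11. Myc rose by 1.89 and 0.83. Mirt1, named for its rise after myocardial infarction, changed by -0.10 in wild-type mice and fell by 0.87 ± 0.27 in the knockout (adjusted p = 0.0166), where it was lost without nulliparous replicate 3 (adjusted p = 0.0543).

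The largest change of all members in wild-type mice was that of Gm5860, an lncRNA. On nulliparous wild-type arrays it stood at -4.20, -3.22, -3.74 and -4.01, and on lactating ones at 0.63, 1.45, 0.35 and 1.52. On nulliparous knockout arrays it stood at -3.91, -3.80, 1.00 and 1.41, and on lactating ones at 1.42, 1.65, 1.51 and 0.32. The values fell into a low and a high range with none between, and nulliparous knockout replicates 3 and 4 were in the high range, as they were for Snhg3. It rose by 4.78 ± 0.99 in wild-type mice (adjusted p = 0.00145) and by 2.55 ± 0.99 in the knockout (adjusted p = 0.0492), the latter by 3.46 without nulliparous knockout replicate 4. Only 2 of the 4 nulliparous wild-type arrays were well above background for it, so that these levels lie near the floor.

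Gm10536 stood at 0.95, 0.45, 0.49 and 0.30 against -2.0, -1.97, -1.57 and -2.0 in wild-type mice, and at 0.27, 0.26, 0.48 and -1.35 against -2.09, -2.52, -2.19 and -2.20 in the knockout. Lactating arrays were below nulliparous ones throughout. It fell by 2.43 ± 0.31 (adjusted p = 0.000117) and by 2.16 ± 0.31 (adjusted p = 0.000503), the latter by 2.59 without nulliparous knockout replicate 4. Gm20611 fell by 2.77 and 1.81, and Gm10336 by 1.58 and 1.89. The lncRNA 1810034E14Rik rose by 1.39 and 1.53. Dubr rose by 1.47 ± 0.36 in wild-type mice (adjusted p = 0.00388) and changed by 0.86 ± 0.36 in the knockout (adjusted p = 0.0632). Zfp783, listed among the non-coding transcripts, fell by 1.22 and 0.86, and the non-coding isoform of Adamtsl5 rose by 0.73 and 0.69.

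Of 111 pseudogene members, 38 were higher and 26 lower in wild-type mice and 32 higher and 29 lower in the knockout, with medians of 0.12 and 0.03. That is 57.7% and 55.0% called, beside 48.3% and 44.2% of all probes. With normexp correction the medians were 0.01 and -0.10. A probe for a processed pseudogene can also bind the transcript of its parent gene, so which of the copies gave the signal is uncertain for each of them. Tubb2a-ps2, a copy of a beta-tubulin gene, stood at -0.90, -0.95, -0.87 and -0.76 against 0.19, 0.43, 0.58 and 0.24 in wild-type mice, and at -0.77, -0.59, -0.69 and 0.09 against 0.18, 0.58, 0.29 and 0.46 in the knockout. Lactating arrays were above nulliparous ones in each genotype, by the least for nulliparous knockout replicate 4. It rose by 1.23 ± 0.16 (adjusted p = 0.000132) and by 0.87 ± 0.16 (adjusted p = 0.00135), the latter by 1.06 without nulliparous knockout replicate 4.

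Gm13315 rose by 1.64 ± 0.31 and 1.47 ± 0.31 (adjusted p = 0.000896 and 0.00252). The pseudogene 4933409K07Rik was not well above background on any nulliparous wild-type array and was called higher in wild-type lactation (adjusted p = 0.0292). That call was lost without nulliparous replicate 1 or 4 or lactating replicate 1 or 4 (adjusted p of 0.0530 to 0.0800). It was also lost with normexp correction, where the change was 0.21 (adjusted p = 0.339). The lactating mean lay 2.81-fold above a floor set near background. For each nulliparous array the floor took the larger of the probe's own signal and the dimmest signal flagged as above background, and these were averaged. The size of the rise thus depends on the background correction. The knockout change of 4933409K07Rik was 0.19 (adjusted p = 0.834). Pseudogenes with several probes again showed both directions: of 5 probes of Gm6981, 4 rose by 0.39 to 1.70 and 1 fell by 0.84 in wild-type mice, and the 2 probes of Gm10731 changed by 1.07 and -1.84.

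**Figure D5:**
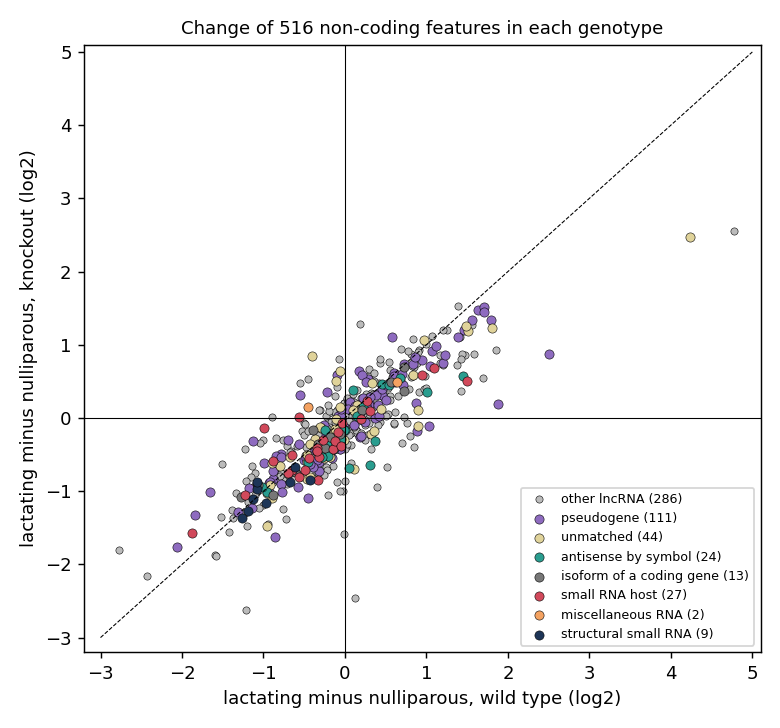
Change in lactation (log2, lactating minus nulliparous) of each of the 516 members in wild-type mice on the horizontal and in Npr1 knockout mice on the vertical axis, coloured by class, with the line of equal change dashed. The points follow the line with r = 0.84, the structural RNAs all lie in the lower left, and Gm5860 lies at 4.78 and 2.55.

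The 2 genotypes, whose contrasts share no array, changed in the same direction for most members. Of the 516, 432 (83.7%) had the same sign, beside 85.7% of coding probes, so this agreement was not particular to the members. Of the members, 178 were called in both, 77 higher in both, 101 lower in both and 0 in opposite directions. These were 75.1% of the wild-type and 75.7% of the knockout calls, and 222 members were called in neither. Pearson r across members was 0.84, as a description, with members of 1 array sharing its scale, and for coding probes it was also 0.84. Nulliparous knockout replicate 4 weighed on the knockout side. Over the 81 members called and changed by over 2-fold in wild-type mice, it stood at a median share of 0.72 of the knockout change from the other nulliparous knockout arrays, beside 0.75 over 1975 such coding probes. Without it, 282 members were called in the knockout, 102 higher and 180 lower, which included 234 of the 235, and r was 0.86.

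Between genotypes few members were called. In nulliparous mice limma called 0 of 516 members at the adjusted threshold, beside 0.0898% of all probes. At an unadjusted p under 0.05 in limma there were 46 members, beside 2196 of all 28950 probes. In lactating mice limma called 1 member, beside 0.111% of all probes. There 76 members were at an unadjusted p under 0.05, beside 2818 of all 28950 probes. The member called was a probe of Gm10845, an lncRNA, at 3.37, 3.06, 3.18 and 3.34 on lactating wild-type and at 3.88, 3.90, 3.99 and 3.97 on lactating knockout arrays. The groups did not overlap, and the knockout was higher by 0.70 ± 0.10 (adjusted p = 0.0120). The other 2 probes of Gm10845 differed by 0.31 (adjusted p = 0.448) and 0.03 (adjusted p = 0.983). No member was called with no filter, or without lactating wild-type replicate 2 or lactating knockout replicate 3 or 4. The called probe is not the brightest of its gene. The setting with 1 probe per gene leaves it out and does not test its call. Each slide alone called 1 member, which was lower in the knockout and thus not Gm10845.

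For the difference between the genotypes in the change with lactation, limma called 0 of 516 members, beside 0.0691% of all probes. The smallest adjusted p of a member was 0.268. At an unadjusted p under 0.05 there were 43 members, beside 1757 of all 28950 probes. The changes of Snhg3, Snhg18, Neat1 and Hand2os1, called or larger in 1 genotype, are thus not shown to differ between genotypes at this number of mice.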

How the data were processed

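RNA from ventricles of 16 female mice was hybridised to 16 one-colour Agilent arrays, 4 per group, after Cy3 labelling of 200 ng of total RNA, per the labels' protocols. The deposited intensity values are the scanner software's processed signals (Agilent Feature Extraction 10.7.3.1, per the submitters' processing notes), background-subtracted and spatially detrended, and arrays were not scaled to each other, as the file headers record. The authors' deposited log2 table was found, by comparison with these signals over 24613 probes (r of 0.942 to 0.996 per array), to be scaled to the 75th percentile and centred on the nulliparous wild-type mean. Its column medians were -0.382 to 0.032, and it served as an alternative.

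Here spots of 1 probe were averaged, log2 signals were taken relative to each array's 75th percentile, control spots and outlier flags were left out, and limma 3.58.1 (R 4.3.3) was fitted to all 4 groups with lmFit and eBayes over the 28950 probes kept, with Benjamini-Hochberg adjustment at 0.05. No spot of a member was saturated. The fit was tested on simulated data. Slide 1 held replicates 1 and 2 of every group and slide 2 replicates 3 and 4, and the position on the slide moved with the group, so position and group cannot be told apart. Replicate numbers were not used as pairs, since no label says that they mark a shared animal or day and not every same-numbered pair of arrays correlated above 0.1.

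The members and lists were chosen with earlier results of these data known. Named genes are the 6 largest rises and falls per contrast among called members whose groups do not overlap (2 for placeholder symbols), and the listed hosts, imprinted, nuclear, structural and cardiac RNAs. Dnmt3aos, Zbtb11os1, Gm6981, Gm10731, Gm10845, Rnu3b1, Snora47, Rn4.5s, 2810001G20Rik and 4933406C10Rik were named after their values were seen. Names, neighbours and sequences are from RefSeq on GRCm38.p6, matched by accession without version. The array headers name another build, so no other coordinates are given. Alternatives were normexp correction (offset 50), quantile normalization, median centring, other filters, 1 probe per gene, array weights, blocks by replicate number or slide, each slide alone, leaving out 1 array at a time and the authors' table. The number of arrays limits the precision.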

Additional observations from a re-analysis of the deposited data

Results flagged for a closer look

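Among 268 sets of 4 arrays tested over the named members, 12 had 1 array whose gap to its nearest neighbour exceeded Dixon's 95% critical value for 4 samples. Chance flags about 1 in 20 such sets, and the cause of each was not tested. In 4 of the 12 the array was nulliparous knockout replicate 4, at -1.35 for Gm10536, -0.748 for Mir17hg, -0.507 for Rmrp and -1.79 for Pvt1 (dimmer probe). Of the lactating knockout arrays, replicate 1 lay apart at 0.869 for Snhg3, replicate 2 at -0.866 for Snhg1 and 7.64 for Neat1, and replicate 4 at 0.0868 for Lockd. Lactating wild-type replicate 3 lay apart at -1.57 for Gm10536 and replicate 1 at 1.73 for Snhg16. Nulliparous wild-type replicate 3 lay apart at -0.656 for Mir99ahg and replicate 4 at 8.13 for Rn28s1.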

How the results depend on the processing

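The number of members called in lactation stayed within 1.5 times of the reported 237 and 235 under each alternative except 2. Without a filter, 585 of the non-coding probes were called in wild-type mice, and with slide 2 alone, which leaves 2 arrays per group, 8 were called in wild-type mice and 0 in the knockout, where 101 were at an unadjusted p under 0.05 in limma. Slide 1 alone gave 192 and 231. With 1 array left out the counts were 199 to 254 and 186 to 282, and between genotypes 0 to 1 in nulliparous and 0 to 6 in lactating mice, and 0 to 1 for the difference. Calls between genotypes in nulliparous mice were 1 with median centring, 3 with array weights and 2 with slide 2 alone. In lactating mice they were 3 with normexp, 0 with no filter, 3 with only the groups compared and 17 with array weights. With 1 probe per gene, which leaves out the called Gm10845 probe, they were 0.

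Median changes moved more than the counts. In wild-type mice the median was -0.159 with normexp, 0.031 with quantile normalization, 0.136 with median centring, -0.480 with no filter, -0.098 on slide 1 and 0.028 on slide 2, and with 1 array left out -0.081 to -0.024. In the knockout it was -0.232, -0.073, 0.032 and -0.270 under the first 4 of these, and -0.177 to -0.133 with 1 array left out. Between genotypes it was 0.099 with median centring and -0.172 with no filter in nulliparous mice, and -0.00016 and 0.035 in lactating mice. For the difference it was 0.129 with no filter. With 1 array left out these medians were -0.0087 to 0.055, -0.086 to -0.056 and -0.127 to -0.063. The cause was not tested.

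Of 117 values of named probes, 83 lost their call on slide 2 alone, 15 on slide 1 alone, 15 with no filter, 14 with median centring, 14 with only the groups compared, 5 with normexp and 4 with quantile normalization. Mir1a-1hg reversed, to -0.32 in the knockout with normexp. Same-numbered arrays of different groups correlated in their deviations at -0.149 to 0.185 over 24 pairs, 7 of them over 0.1, with a median of 0.063 against -0.009 for other numbers. Of the 16 arrays, 9 correlated best with their own number, a hint from the data. Same-numbered arrays share a slide, and no label says that they share more. A replicate block gave 233 and 243 calls ended the calls of Snhg6 in the knockout and Mir1a-1hg in wild-type mice, and added that of the dimmer Pvt1 probe in the knockout (adjusted p = 0.0227). A slide block ended 2 named calls. Dim probes set the limit of depth: 411 of the 516 members were well above background on all 16 arrays.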
